A study of Mus musculus with 8 samples.

Results

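The TNF ligand and receptor superfamilies were read in the distal colon of male BALB/c mice as the genes whose symbol is Tnf, Tnfsf or Tnfrsf followed by a number and an optional letter. Such a gene was taken where it was the only symbol of a probe set. This gave 27 of the 16645 genes on the array, 7 ligands and 20 receptors, and each of the 27 had 1 probe set. RefSeq lists 32 mouse genes with symbols of this form. Of the other 5, Tnfsf12 and Tnfsf13 share a probe set with each other, and Tnfsf4, Tnfsf9 and Tnfsf14 had no probe set named for them alone, so these were not analysed here.

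The AA group (4 arrays) had appendicitis induced and the appendix removed 1 week later. The SS group (4 arrays) had 2 sham operations 1 week apart. All mice were 5 weeks old, and each array held RNA from an individual piece of the most distal colon. The labels name 2 batches, each with 2 AA and 2 SS arrays (replicates 1 and 2 in batch 1, replicates 3 and 4 in batch 2). The series' design text calls the 4 arrays of each group biological replicates. The sample labels give no day of harvest, and the name of the authors' deposited table of gene sets gives 3 days after the appendix was removed.

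Ligands of the TNF superfamily are mostly membrane proteins of immune and stromal cells that act as trimers, on the cell surface or after cleavage. Their receptors fall into those with a death domain, which can trigger apoptosis or necroptosis, those that bind TRAF adaptors and activate NF-kB, and decoys that bind ligand without signalling. In the gut the family is known for inflammatory signalling by TNF, for survival of B cells through BAFF, and for the M cells and follicles that depend on RANKL and lymphotoxin.

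The values are log2 expression values made by RMA (robust multi-array average), and each difference is mean AA minus mean SS in log2 units. Correlations between arrays over the tested probe sets ran from 0.974 to 0.995. All 15 markers of colon epithelium measured had means above 7.13, the median of the tested probe sets. SS replicate 1 stood apart: its values had an SD of 1.72 over probe sets, against 1.80 to 1.87 in the other 7 arrays, and its adipocyte marker mean of 8.61 was the highest of the 8. AA replicate 3 had the highest means of macrophage (8.62) and neutrophil (7.02) markers. AA replicate 2 had the highest epithelial marker mean (12.51). The marker Fabp2 was 12.68 there and ran from 6.72 to 10.05 in the other arrays, and Cdx2 was also highest there (9.77). No probe set of the whole table passed an adjusted p of 0.05 in limma, so 0 of 27 members did (the background is 0%).

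A ligand gene and several receptor genes were higher in AA colon at an unadjusted p under 0.05. They were Tnfrsf12a (Fn14), Tnfrsf1a and Tnfrsf1b (the receptors of TNF itself), Tnfrsf11b (osteoprotegerin, a secreted decoy) and Tnfsf13b (BAFF). These 5 are 18.5% of the members, where 5.67% of all genes were called in that direction. None of the 27 was called lower, where 2.29% of all genes were. By class, 1 of 7 ligands and 4 of 20 receptors were called higher. The median difference was 0.095 over ligands and 0.026 over receptors, against 0.0066 over all genes. Both turned negative within batch 1, at -0.067 over ligands and -0.059 over receptors, and were -0.0001 and -0.0028 without AA replicate 3. The receptor median was also negative without SS replicate 3 (-0.030). Adjusted p-values of the members in limma ran from 0.298 to 0.996, so none of these differences passed over all genes.

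**Figure D1:**
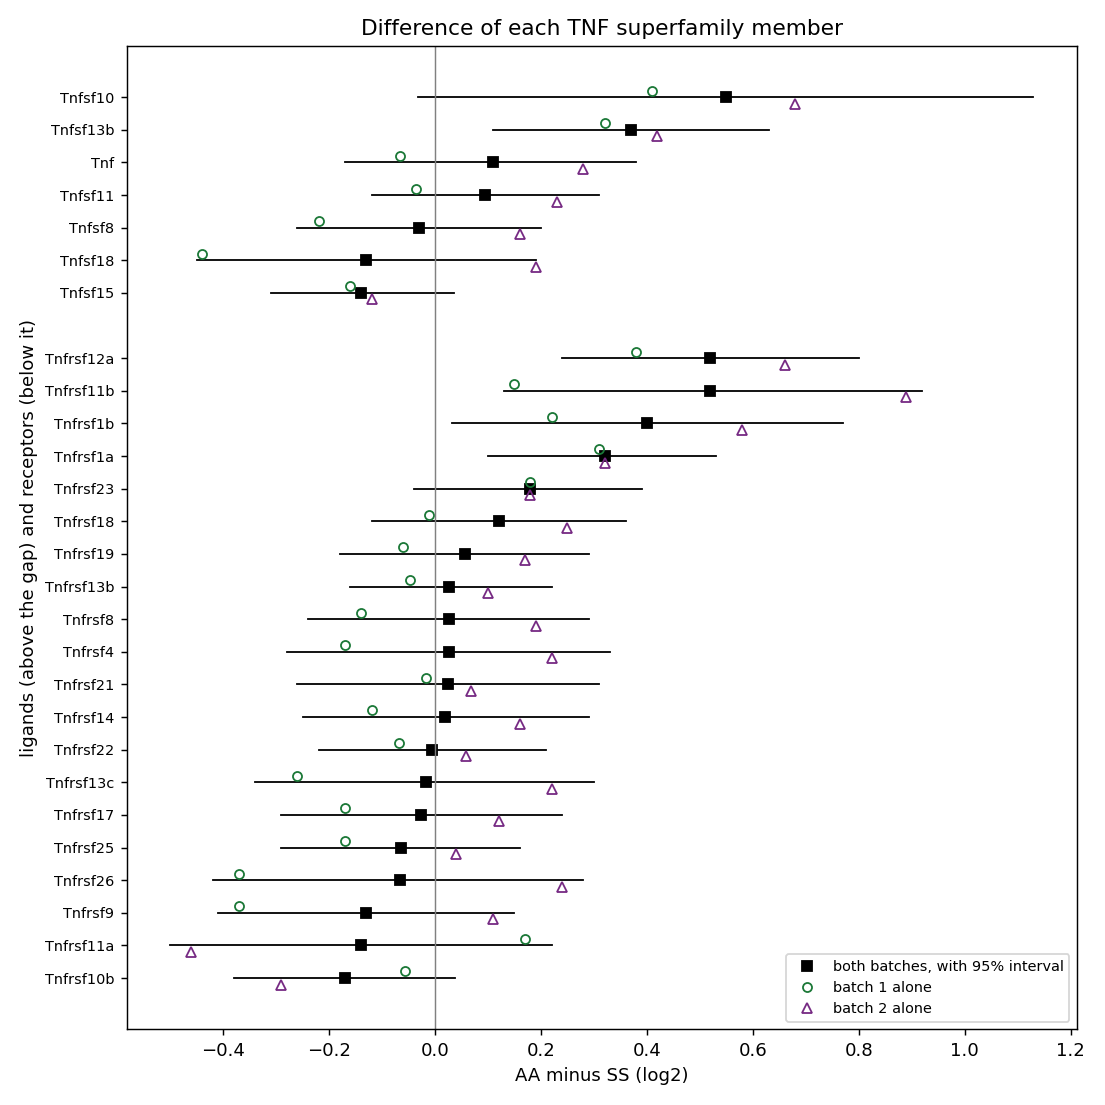
Difference of each member, AA minus SS on the log2 scale (horizontal axis), for ligands above the gap and receptors below it. Squares with lines are the difference over both batches with its 95% interval from limma, circles are batch 1 alone and triangles batch 2 alone. The intervals of Tnfsf13b, Tnfrsf12a, Tnfrsf11b, Tnfrsf1b and Tnfrsf1a lie above 0 and all others include it.

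Tnfrsf12a encodes Fn14, the receptor of TWEAK, which is known for its induction in injured tissue. It stood at 7.69, 7.74, 7.85 and 7.86 in AA colon (replicates 1 to 4 here and below), against 7.55, 7.12, 7.04 and 7.34 in SS colon. The lowest AA array exceeded the highest SS array, which was SS replicate 1. The difference was 0.52 ± 0.12 (SE), or 1.43-fold with a 95% interval of 1.18 to 1.74 (unadjusted p = 0.00206, adjusted p = 0.298 in limma, the smallest of the members). It was 0.38 in batch 1 and 0.66 in batch 2. The ligand of Fn14 is encoded by Tnfsf12, which was not analysed here.

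Tnfrsf1a encodes the widely expressed TNF receptor with a death domain. It stood at 9.08, 8.92, 9.07 and 8.93 in AA colon, against 8.73, 8.64, 8.82 and 8.54 in SS colon. The groups were again fully separate. The difference of 0.32 ± 0.095 (SE) was nearly equal in the batches, at 0.31 and 0.32, and had an unadjusted p of 0.00839 (adjusted p = 0.453 in limma). Over all genes, 4.33% had every AA array above every SS array, and Tnfrsf12a and Tnfrsf1a were the 2 members of 27 that did.

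Tnfrsf1b encodes the other TNF receptor, which lacks a death domain and is found mainly on immune and endothelial cells. It stood at 8.07, 7.95, 8.57 and 7.81 in AA colon, against 7.88, 7.70, 7.54 and 7.68 in SS colon. AA replicate 3 was far the highest, and AA replicate 4 lay below SS replicate 1, so the groups overlapped. The difference was 0.40 ± 0.16 (SE), with an unadjusted p of 0.0362 (adjusted p = 0.587 in limma), 0.22 in batch 1 and 0.58 in batch 2. Without AA replicate 3 it was 0.21, with an unadjusted p of 0.0653, and its p also exceeded 0.05 without AA replicate 1 (0.0598) or SS replicate 2, 3 or 4 (0.0703, 0.104 and 0.0723). Macrophage and monocyte markers were higher in AA in 18 of 18 genes by sign. Of these markers 3 were called higher at an unadjusted p under 0.05, where 5.67% of all genes were. Their median was 0.012 within batch 1, where 8 of the 18 were lower, and 0.97 within batch 2. Their mean ran from 7.33 to 8.62 in AA and from 7.12 to 7.99 in SS colon, highest in AA replicate 3, and 5 of the 18 lay below the median of the tested probe sets. Neutrophil markers were higher in 11 of 11 by sign with 0 called, and their median was -0.057 within batch 1 and 0.48 within batch 2. Endothelial markers were higher in 8 of 12 and lower in 4, with 1 called higher and a median of 0.14. Markers of B and T cells are given below. The part of any of these cells in the Tnfrsf1b difference was not tested. In a whole piece of colon, more cells of a type and more RNA per cell cannot be told apart.

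Tnf, the ligand of both receptors, stood at 6.49, 6.28, 6.74 and 6.38 in AA colon, against 6.43, 6.48, 6.39 and 6.17 in SS colon. The groups overlapped, with AA replicate 3 highest and SS replicate 4 lowest. The difference was 0.11 ± 0.12 (SE), with a 95% interval of -0.17 to 0.38, or 0.891- to 1.30-fold. It was -0.067 in batch 1 and 0.28 in batch 2, and -0.0001 without AA replicate 3. The Tnf probe set was dim, with a mean under 7.13.

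**Figure D2:**
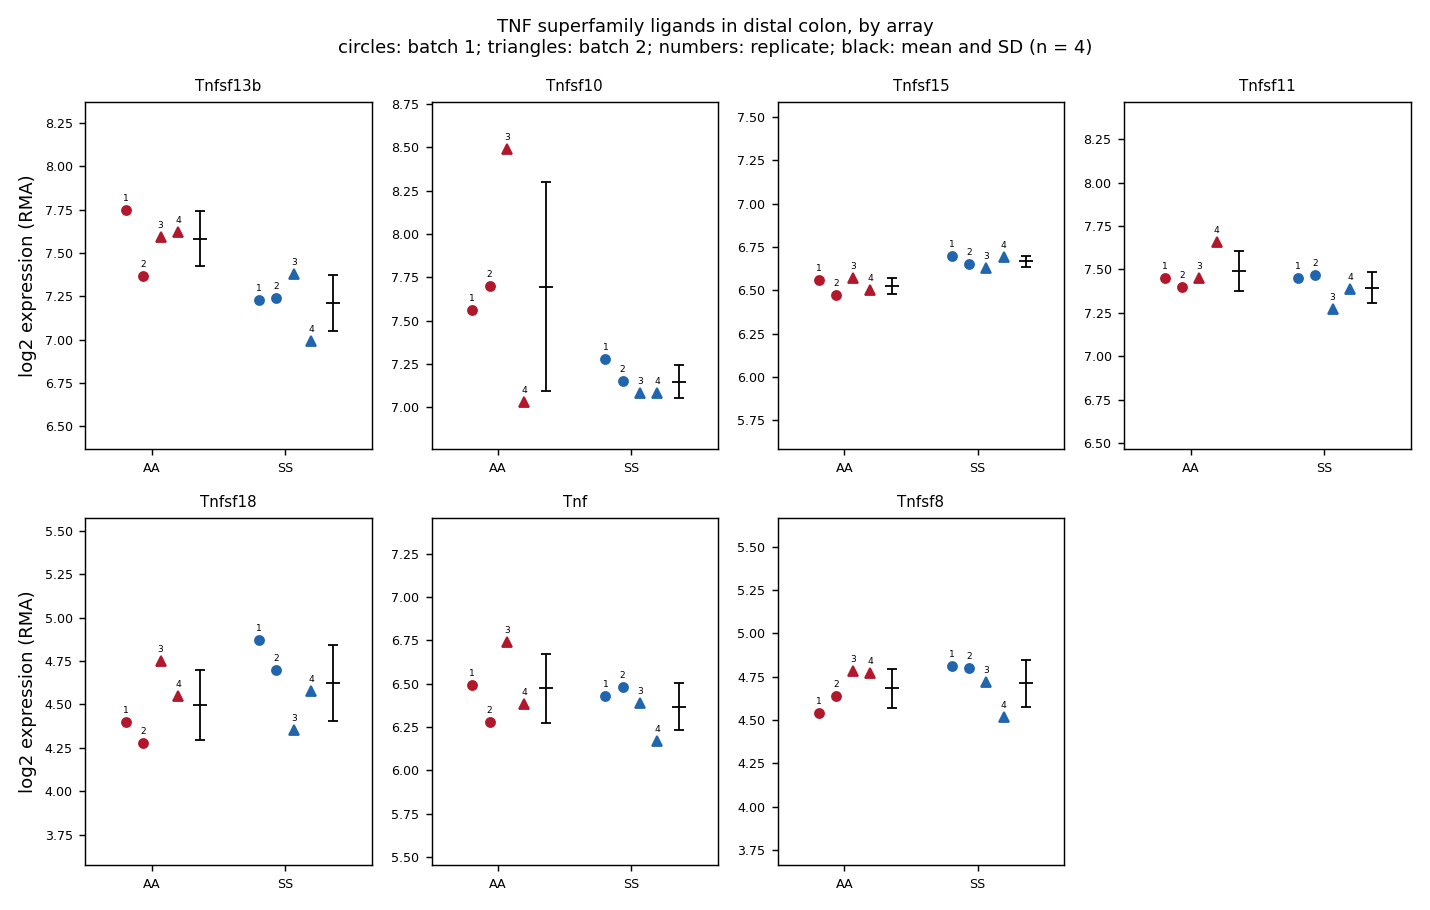
Log2 expression (vertical axis) of the 7 ligands in each array, AA left and SS right in each panel. Circles are batch 1, triangles batch 2, numbers are replicates, and black marks give the mean and SD of 4 arrays. Tnfsf13b lies higher in AA with 1 pair of arrays in the wrong order (AA replicate 2 at 7.37 and SS replicate 3 at 7.38), and Tnfsf15 lies lower in every AA array.

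Tnfsf13b encodes BAFF, the survival factor of mature B cells, made by myeloid and stromal cells and known to be induced by interferons. It stood at 7.75, 7.37, 7.59 and 7.62 in AA colon, against 7.23, 7.24, 7.38 and 6.99 in SS colon. AA replicate 2 lay just below SS replicate 3 and the other arrays were separate. The difference was 0.37 ± 0.12 (SE), or 1.29-fold with a 95% interval of 1.08 to 1.55 (unadjusted p = 0.0114, adjusted p = 0.463 in limma). It was 0.32 in batch 1 and 0.42 in batch 2. With each array left out in turn it ran from 0.28 to 0.46, and its unadjusted p stayed at or under 0.0416.

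The 3 receptors of BAFF had differences near 0. Tnfrsf13c, the receptor on mature B cells through which BAFF acts on survival, stood at 7.30, 7.17, 7.28 and 7.67 in AA colon, against 7.67, 7.31, 7.21 and 7.29 in SS colon. AA replicate 4 and SS replicate 1 were the high arrays, and the difference of -0.017 had a 95% interval of -0.34 to 0.30. Tnfrsf13b, which encodes TACI, stood at 6.54, 6.39, 6.57 and 6.52 in AA colon, against 6.54, 6.49, 6.38 and 6.49 in SS colon, with a difference of 0.027 (-0.16 to 0.22). Tnfrsf17, the plasma cell receptor BCMA, stood at 5.88, 5.87, 5.94 and 6.10 in AA colon, against 6.14, 5.95, 5.70 and 6.11 in SS colon, with a difference of -0.027 (-0.29 to 0.24). All 3 overlapped between the groups, and all 3 turned in sign between the batches: Tnfrsf13c was -0.26 and 0.22, Tnfrsf13b -0.047 and 0.10, and Tnfrsf17 -0.17 and 0.12 in batch 1 and batch 2. Tnfrsf13b and Tnfrsf17 were dim.

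Of the 14 B cell and follicle markers measured, 13 were lower in AA by sign. Over all genes 52.2% were higher by sign and the rest lower. At an unadjusted p under 0.05, 9 of the 14 were called lower, where 2.29% of all genes were. The median of the 14 was -0.35 over both batches, -0.63 within batch 1 and -0.13 within batch 2. Their mean ran from 5.66 to 6.18 in AA and from 6.27 to 6.65 in SS colon, without overlap. All but 1 of the 14 lay below the median of the tested probe sets. Plasma cell markers were higher in 8 of 10 by sign, with 0 at an unadjusted p under 0.05 and means of 7.66 to 8.02 in AA against 7.49 to 7.71 in SS colon. Thus at an unadjusted p under 0.05 the BAFF gene was called higher in AA colon and 9 of the 14 B cell markers lower. The BAFF receptor genes were not called, with intervals that reach to -0.34 and 0.30. Whether the receptor differences depart from those of BAFF or of the B cell markers was not tested. The part of B cell number in the receptor values was not tested.

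**Figure D3:**
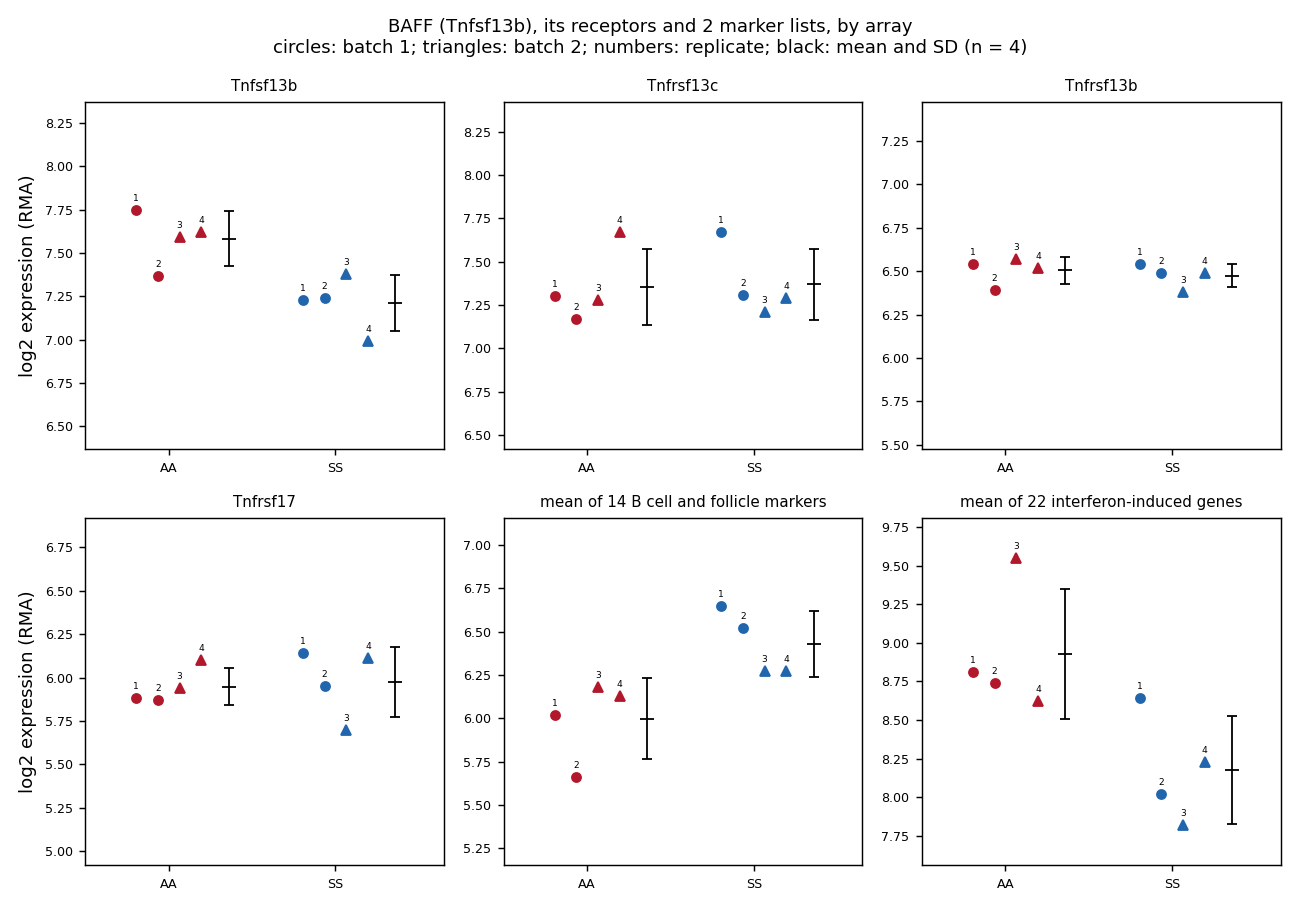
Log2 expression (vertical axis) of Tnfsf13b, its receptors Tnfrsf13c, Tnfrsf13b and Tnfrsf17, and the mean of 14 B cell and follicle markers and of 22 interferon-induced genes, per array with AA left and SS right. Circles are batch 1, triangles batch 2, black marks the mean and SD of 4 arrays. The B cell marker mean is lower in every AA array (5.66 to 6.18, against 6.27 to 6.65 in SS).

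Tnfsf10 encodes TRAIL, a death ligand known as an interferon-induced gene. It stood at 7.56, 7.70, 8.49 and 7.03 in AA colon, against 7.28, 7.15, 7.08 and 7.08 in SS colon. The SS arrays lay close together, while AA replicate 3 was the highest and AA replicate 4 the lowest of all 8. The difference of 0.55 ± 0.26 (SE) was the largest of the 27 and had an unadjusted p of 0.0617 (adjusted p = 0.644 in limma). It was 0.81 without AA replicate 4, with an unadjusted p of 0.00351, and 0.23 without AA replicate 3, with an unadjusted p of 0.0951. All 22 genes of the interferon list differed upwards in AA, with a median of 0.75. Of them 20 were called higher at an unadjusted p under 0.05, where 5.67% of all genes were. The interferon list mean was 9.55 in AA replicate 3 and 8.62 in AA replicate 4, the highest and the lowest of the AA arrays. It ran from 7.82 to 8.64 in SS colon, and 2 of the 22 were dim. These 2 AA arrays were also the highest and lowest of AA for neutrophil markers (7.02 and 5.69) and for genes induced by TNF and NF-kB (7.47 and 6.48). Tnfsf13b was instead highest in AA replicate 1 and, within AA, lowest in AA replicate 2. The part of the interferon response in the Tnfsf10 and Tnfsf13b values was not tested.

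Tnfrsf10b is the mouse TRAIL receptor with a death domain. It stood at 6.56, 6.53, 6.36 and 6.50 in AA colon, against 6.53, 6.68, 6.65 and 6.79 in SS colon. The only SS array within the AA range was replicate 1, and the difference was -0.17 ± 0.093 (SE) (unadjusted p = 0.0966, adjusted p = 0.696 in limma). Without SS replicate 1 it was -0.22, with an unadjusted p of 0.0353. Tnfrsf22 and Tnfrsf23 encode decoy receptors of TRAIL known from the mouse and lie side by side on chromosome 7. Tnfrsf23 stood at 5.41, 5.69, 5.58 and 5.51 in AA colon, against 5.43, 5.31, 5.27 and 5.47 in SS colon, a difference of 0.18 in each batch (unadjusted p = 0.0977, adjusted p = 0.699). Tnfrsf22 differed by -0.0053, between 6.04 and 6.17 in AA and 6.00 and 6.29 in SS colon. All 3 of these TRAIL receptor probe sets were dim.

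Tnfrsf11b encodes osteoprotegerin, the soluble decoy that binds RANKL and TRAIL. It stood at 7.36, 7.43, 7.98 and 7.55 in AA colon, against 7.44, 7.05, 6.98 and 6.77 in SS colon. AA replicate 3 was the highest, and SS replicate 1 lay above AA replicates 1 and 2. The difference was 0.52 ± 0.17 (SE), or 1.43-fold with an interval of 1.09 to 1.89 (unadjusted p = 0.0151, adjusted p = 0.503 in limma). It was 0.15 in batch 1 and 0.89 in batch 2. Without AA replicate 3 it was 0.36, with an unadjusted p of 0.0402, and without SS replicate 4 it was 0.41, with an unadjusted p of 0.0514.

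Markers of fibroblasts, mesothelium and smooth muscle, cells of the colon wall and its surface, were also higher in AA colon by sign. Over all genes, 5.67% were called higher at an unadjusted p under 0.05. Fibroblast markers were higher in 16 of 16 by sign, 14 at an unadjusted p under 0.05, and their mean ran from 9.78 to 10.11 in AA and from 9.13 to 9.73 in SS colon, highest in AA replicate 3 and, within SS, in SS replicate 1, and lowest in SS replicate 2. Mesothelium markers were higher in 9 of 9, 5 at an unadjusted p under 0.05, with a mean of 7.29 to 8.56 in AA and 6.38 to 7.69 in SS colon. Their median was 0.064 within batch 1, where 3 of the 9 were lower, and 1.5 within batch 2. Smooth muscle markers were higher in 10 of 10, 6 at an unadjusted p under 0.05, with a mean of 10.04 to 10.68 in AA and 9.85 to 10.27 in SS colon, and AA replicate 3 was the lowest AA array there. SS replicate 4 was the lowest array for the mesothelium mean and for Tnfrsf11b. It was also the lowest for the macrophage (7.12), plasma cell (7.49) and endothelial (6.71) marker means. Not all such lists were higher: endothelial markers were mixed, as given above. Adipocyte markers were lower in 12 of 13 by sign, with 0 called in either direction. Their median was -0.53 over both batches, -0.94 within batch 1 and -0.14 within batch 2, and 6 of the 13 were dim. None of the 16 fibroblast markers, 2 of the 9 mesothelium markers and 1 of the 10 smooth muscle markers were dim, and the part of these cells in the Tnfrsf11b and Tnfrsf12a values was not tested.

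The genes of RANKL and of its signalling receptor were not called in either direction over both batches. Tnfsf11, the RANKL gene, stood at 7.45, 7.40, 7.45 and 7.66 in AA colon, against 7.45, 7.47, 7.27 and 7.39 in SS colon. The groups overlapped, and the difference of 0.095 had a 95% interval of -0.12 to 0.31. Tnfrsf11a, the RANK gene, stood at 9.0, 9.21, 8.87 and 8.70 in AA colon, against 8.73, 9.13, 9.09 and 9.41 in SS colon. Its difference of -0.14 ± 0.16 (SE) was 0.17 in batch 1 and -0.46 in batch 2, so the batches pointed opposite ways. The batch 2 value had an unadjusted p of 0.0194 in limma on that batch alone. Whether the Tnfrsf11b difference exceeds those of Tnfsf11 and Tnfrsf11a was not tested.

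Tnfsf15 encodes TL1A, a costimulator of T cells in the gut whose receptor is Tnfrsf25. It stood at 6.56, 6.47, 6.57 and 6.50 in AA colon, against 6.70, 6.65, 6.63 and 6.69 in SS colon. Every AA array lay below every SS array, as in 1.84% of all genes, and no other member did so. The difference was small, -0.14 ± 0.077 (SE), and the same way in both batches (-0.16 and -0.12), with an unadjusted p of 0.106 (adjusted p = 0.700 in limma). Tnfrsf25 stood at 6.08, 6.20, 6.21 and 6.28 in AA colon, against 6.47, 6.15, 6.18 and 6.23 in SS colon, with a difference of -0.064 that was 0.021 without SS replicate 1. Both probe sets were dim.

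**Figure D4:**
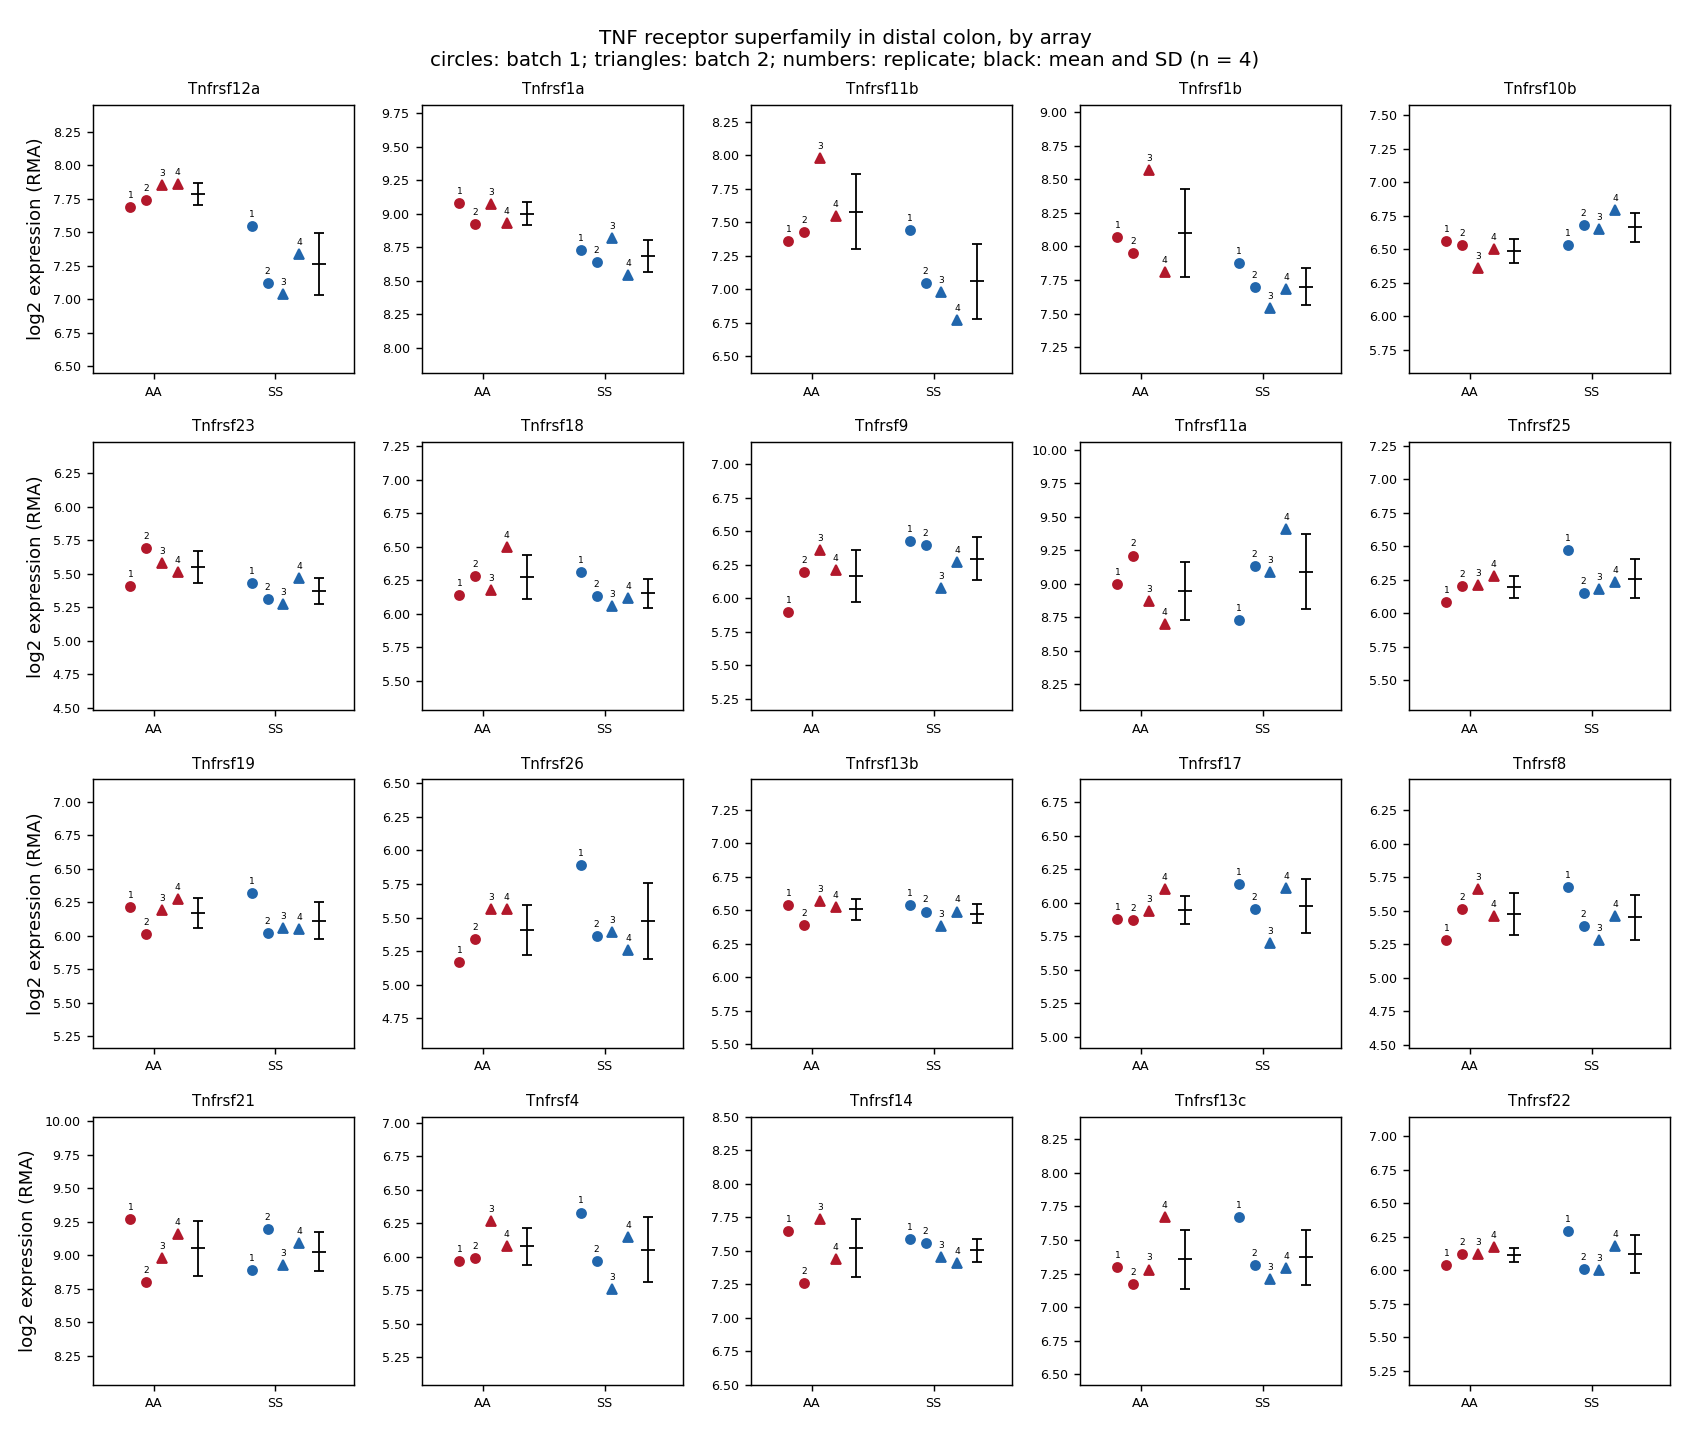
Log2 expression (vertical axis) of the 20 receptors in each array, AA left and SS right, in order of unadjusted p. Circles are batch 1, triangles batch 2, numbers are replicates, and black marks give the mean and SD of 4 arrays. Tnfrsf12a and Tnfrsf1a are separate between the groups, and SS replicate 1 is the highest array in 9 of the 20 panels.

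Tnfrsf18, Tnfrsf9, Tnfrsf8 and Tnfrsf4, costimulatory receptors of T cells, and the ligand genes Tnfsf18 and Tnfsf8 were not called in either direction over both batches. Tnfrsf18, the GITR gene, stood at 6.14, 6.28, 6.18 and 6.50 in AA colon, against 6.31, 6.13, 6.06 and 6.12 in SS colon, and differed by 0.12 (-0.12 to 0.36). Its ligand gene Tnfsf18 stood at 4.40, 4.28, 4.75 and 4.55 in AA colon, against 4.87, 4.70, 4.35 and 4.58 in SS colon, a difference of -0.13 that was -0.44 in batch 1 (unadjusted p = 0.0208 in limma on that batch alone) and 0.19 in batch 2. Both overlapped between the groups. Tnfrsf18 was -0.012 in batch 1 and 0.25 in batch 2. Receptor and ligand thus differed in sign over both batches but had the same sign within each batch. Tnfrsf9, a costimulator of activated T cells, stood at 5.90, 6.20, 6.36 and 6.21 in AA colon, against 6.43, 6.40, 6.08 and 6.27 in SS colon, and differed by -0.13 (-0.41 to 0.15). Tnfsf8 stood at 4.54, 4.64, 4.78 and 4.77 in AA colon, against 4.81, 4.80, 4.72 and 4.52 in SS colon, and differed by -0.031, while its receptor gene Tnfrsf8 differed by 0.026. Tnfrsf4 differed by 0.026, from 5.97 to 6.27 in AA and from 5.76 to 6.33 in SS colon. Each of these 6 was dim. T cell markers were lower in 12 of 14 by sign with 0 at an unadjusted p under 0.05. Their means were 5.77 to 5.97 in AA and 5.85 to 6.21 in SS colon, highest in SS replicate 1. Their median was -0.24 within batch 1 and -0.0093 within batch 2, and all 14 were dim.

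Tnfrsf14, which binds LIGHT and the inhibitory receptor BTLA, stood at 7.65, 7.26, 7.74 and 7.44 in AA colon, against 7.59, 7.56, 7.45 and 7.41 in SS colon. Its difference of 0.019 had an interval of -0.25 to 0.29, and the AA arrays spread more widely than the SS arrays (SD of 0.22 and 0.08). Tnfrsf21, a death domain receptor, ran from 8.80 to 9.27 in AA and from 8.89 to 9.20 in SS colon and differed by 0.025. Tnfrsf19, known as a Wnt target of intestinal stem cells, stood at 6.21, 6.01, 6.19 and 6.27 in AA colon, against 6.32, 6.02, 6.06 and 6.05 in SS colon. Within SS, replicate 1 stood well above the other 3, and the difference of 0.056 was 0.14 without it. Tnfrsf26, the neighbour of Tnfrsf22 on chromosome 7, stood at 5.17, 5.34, 5.56 and 5.56 in AA colon, against 5.89, 5.36, 5.39 and 5.26 in SS colon. SS replicate 1 was again highest, and the difference of -0.067 was 0.099 without it.

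The dim members were also counted by array. Of the 16 members with a mean under 7.13, 0 were called higher and 0 lower, where 3.13% and 2.06% of all genes under that level were. SS replicate 1 was the highest of the 8 arrays in 11 of these 16, against 29.5% of all genes under that level. After quantile normalization between arrays it was highest in 5 of 16, against 15.7%. The difference was negative in batch 1 in 15 of the 16 (62.6% of all such genes), and positive in batch 2 in 14 of the 16 (63.3%). SS replicate 1 lies in batch 1, and its part in these signs was not tested. Over all 27 members the sign was the same in both batches in 9, or 6 of the 11 brighter ones, where 45.4% of all genes kept one sign. All 5 members called higher were among the 11 brighter ones, where 8.28% of all genes at or above that level were called higher. These 5 genes were also called with AA replicate 3 and SS replicate 1 both left out, a setting added after the data were seen. Other settings called fewer of them: 4 with quantile normalization, 3 without SS replicate 4, 4 in batch 2 alone and 0 in batch 1 alone.

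**Figure D5:**
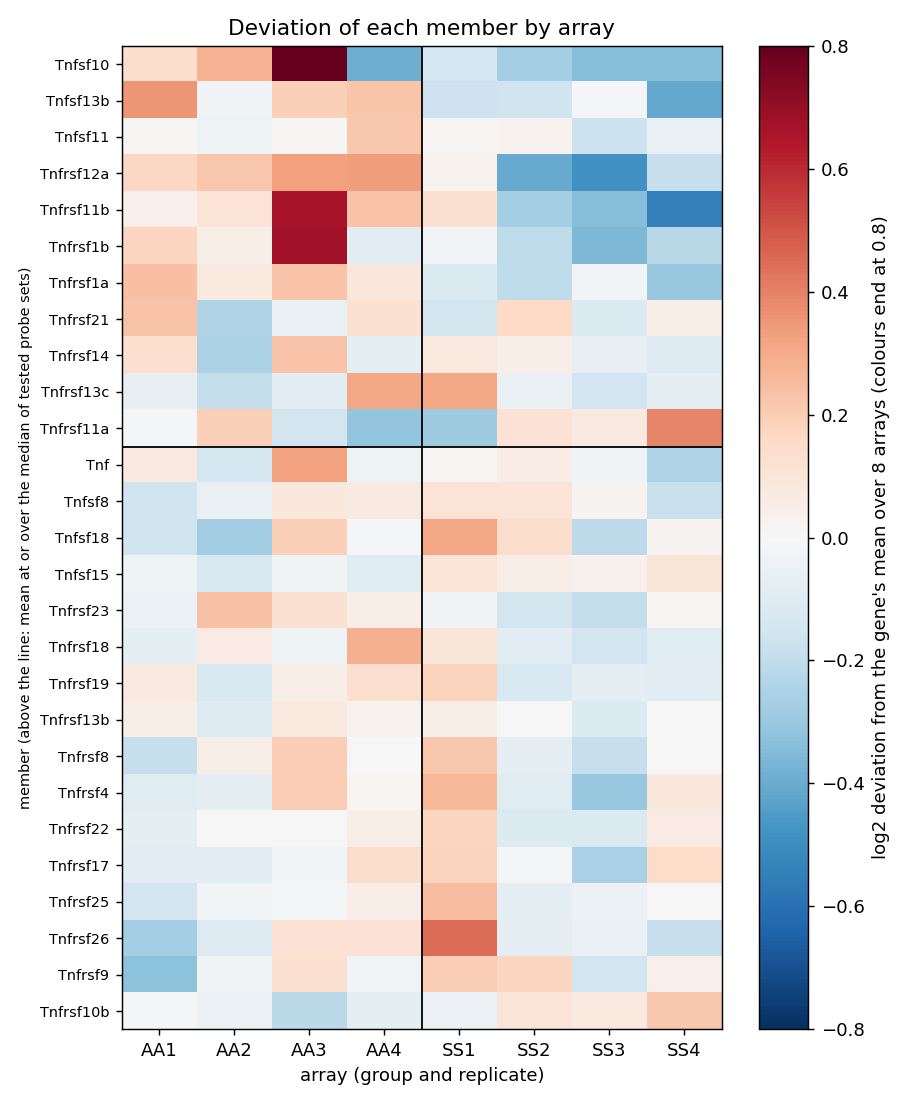
Deviation of each member from its own mean over the 8 arrays (colour, log2), with arrays in columns, AA left of the line and SS right. Members above the horizontal line have means at or over 7.13 and those below it are dimmer. The red cells of SS replicate 1 lie mostly in the dimmer members, where it is the highest array in 11 of 16, and AA replicate 3 is the highest in 6 members, Tnfsf10, Tnfrsf11b, Tnfrsf1b, Tnf, Tnfrsf13b and Tnfrsf14.

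Promoter sequence is shown for the called genes that have an entry in the RefSeq promoter table (GRCm38.p6), as the 250 bases before the start of transcription, so that the letters before the start can be read beside the values of these genes. Capitals mark matches on either strand to the core of the interferon-stimulated response element (GAAANNGAA), the STAT-binding element GAS (TTCNNNGAA) or AP-1 (TGANTCA), and no match overlaps another in these windows. The motifs were picked after the promoters had been read.
Tnfsf13b, chr8:10006383-10006632, plus strand: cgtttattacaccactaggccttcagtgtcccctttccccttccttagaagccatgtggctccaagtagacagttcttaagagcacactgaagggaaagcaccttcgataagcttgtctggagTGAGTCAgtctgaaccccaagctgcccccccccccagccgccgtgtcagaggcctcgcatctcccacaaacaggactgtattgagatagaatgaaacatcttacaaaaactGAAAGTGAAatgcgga
Tnfrsf1b, chr4:145246871-145247120, minus strand: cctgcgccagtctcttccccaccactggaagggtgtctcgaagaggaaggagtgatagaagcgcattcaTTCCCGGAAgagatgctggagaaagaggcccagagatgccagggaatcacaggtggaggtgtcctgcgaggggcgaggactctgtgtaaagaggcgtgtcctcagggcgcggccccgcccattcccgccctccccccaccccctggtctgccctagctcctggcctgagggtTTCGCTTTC
Tnfrsf1a, chr6:125349473-125349722, plus strand: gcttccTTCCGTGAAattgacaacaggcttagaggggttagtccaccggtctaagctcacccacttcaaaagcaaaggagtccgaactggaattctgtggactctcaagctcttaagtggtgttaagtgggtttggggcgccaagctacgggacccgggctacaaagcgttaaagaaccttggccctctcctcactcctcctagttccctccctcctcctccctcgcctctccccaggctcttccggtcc
Tnfrsf12a, chr17:23677450-23677699, minus strand: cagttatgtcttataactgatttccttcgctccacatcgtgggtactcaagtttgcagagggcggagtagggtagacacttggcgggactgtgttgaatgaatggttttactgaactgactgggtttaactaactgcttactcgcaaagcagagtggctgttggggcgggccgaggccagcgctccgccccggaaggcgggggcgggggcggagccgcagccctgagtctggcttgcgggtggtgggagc

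The interferon response core stands 16 to 8 bases before the start in Tnfsf13b and 9 to 1 bases before it in Tnfrsf1b. Tnfsf13b has a further listed start, whose window holds none of the 3 motifs. The 23 members in the table have 27 windows. The core was found in 6 of these windows, 1 for each of 6 members, and in 7.13% of all 32851 windows of that length. Of the other members with it, Tnfrsf14, Tnfrsf17, Tnfrsf4 and Tnfsf8 had differences of 0.019, -0.027, 0.026 and -0.031. GAS letters were found in 5 member windows and in 7.02% of all windows, and AP-1 letters in 3 and in 6.75%. As the motifs were picked with these promoters in view, the counts say nothing of an excess over other genes. A match is a run of letters and no measured site.

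By position, 9 of the 27 members lie on chromosome 4. Next to each other among protein-coding genes are Tnfsf15 and Tnfsf8, Tnfrsf1b and Tnfrsf8, and Tnfrsf4 and Tnfrsf18 on chromosome 4, and Tnfrsf26, Tnfrsf22 and Tnfrsf23 on chromosome 7. Tnfsf15 and Tnfsf8 differed by -0.14 and -0.031, Tnfrsf1b and Tnfrsf8 by 0.40 and 0.026, and Tnfrsf4 and Tnfrsf18 by 0.026 and 0.12. Tnfrsf26, Tnfrsf22 and Tnfrsf23 differed by -0.067, -0.0053 and 0.18, and differences between neighbours were not tested.

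Superfamily genes with other names gave few further differences. Of 6 such ligands 2 were measured, Ltb (lymphotoxin beta, which organises lymphoid follicles) at -0.22 ± 0.16 (SE) and Eda at 0.024. Of the 8 such receptors, all measured, 1 (against 5.67% of all genes) was called higher at an unadjusted p under 0.05 and 0 lower. That gene was Fas, the receptor of Fas ligand with a death domain, at 7.78, 8.06, 7.93 and 7.63 in AA colon, against 7.33, 7.46, 7.73 and 7.33 in SS colon. AA replicate 4 lay below SS replicate 3 and the rest were separate, with a difference of 0.39 ± 0.13 (SE) (unadjusted p = 0.0152, adjusted p = 0.503 in limma). Cd40 and Ltbr, the next by p, differed by -0.088 and -0.066.

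Downstream, genes of adaptors and death signalling were called higher in 3 of 21 and lower in 1, against 5.67% and 2.29% of all genes, with a median of 0.077. Ripk3, the kinase that starts necroptosis, stood at 8.38, 8.95, 8.63 and 8.47 in AA colon, against 7.77, 7.92, 7.88 and 8.04 in SS colon. The groups did not overlap, and the difference was 0.71 ± 0.13 (SE), or 1.63-fold (unadjusted p = 0.000485, adjusted p = 0.238 in limma). Mlkl, the Ripk3 substrate that breaks the membrane, stood at 8.69, 8.62, 8.79 and 8.23 in AA colon, against 8.04, 7.86, 7.96 and 8.22 in SS colon, a difference of 0.56 ± 0.14 (SE). The groups were just separate, with AA replicate 4 beside SS replicate 4. Casp8, the caspase of death receptors, differed by 0.46 and is named after its value was seen. Map3k5, a stress kinase also called ASK1, was the gene called lower, at 8.60, 8.23, 8.31 and 8.34 in AA colon, against 8.61, 8.82, 8.77 and 8.83 in SS colon, a difference of -0.39 ± 0.11 (SE).

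Genes of the NF-kB pathway had a median of -0.0016. Over all genes 5.67% were called higher and 2.29% lower, and of these 26 genes 0 were called higher and 1 lower. That gene was Tnfaip3, which encodes A20, the ubiquitin-editing brake on TNF receptor signalling. It stood at 9.07, 8.62, 8.89 and 9.01 in AA colon, against 9.16, 9.60, 9.25 and 9.30 in SS colon, with every AA array below every SS array. The difference was -0.43 ± 0.13 (SE) (unadjusted p = 0.0101, adjusted p = 0.463 in limma), and it was negative in both batches (-0.53 and -0.33). Next by p in that list were Rnf31, part of the linear ubiquitin ligase, at 0.24 ± 0.11 (SE), and Nfkbiz, a nuclear regulator of NF-kB, at 0.35 ± 0.20 (SE).

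Among genes known to be induced by TNF and NF-kB, 1 of 19 was called higher and 1 lower. Each is 5.26% of the list, where 5.67% of all genes were called higher and 2.29% lower. The share called higher was thus near that of all genes. However, 14 of the 19 were dim, and of all genes under that level 3.13% were called higher and 2.06% lower. The list had a median of 0.25 that was -0.068 in batch 1 and 0.43 in batch 2. Ccl20, a chemokine of follicle-associated epithelium, stood at 8.07, 7.38, 7.68 and 7.59 in AA colon, against 8.06, 8.67, 8.71 and 8.21 in SS colon. AA replicate 1 and SS replicate 1 met at the edge, and the difference was -0.73 ± 0.19 (SE) (unadjusted p = 0.00380, adjusted p = 0.336 in limma). Ptgs2, the inducible cyclooxygenase, was the higher one, at 7.67, 7.24, 7.82 and 6.82 in AA colon, against 6.82, 6.68, 6.61 and 7.16 in SS colon, a difference of 0.57 ± 0.22 (SE). Irf1, a transcription factor induced by interferon gamma and TNF, differed by 0.24 ± 0.11 (SE), with an unadjusted p of 0.0588. The list mean was 7.47 in AA replicate 3 and 6.48 to 6.76 in the other AA arrays, against 6.41 to 6.81 in SS colon.

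The authors' deposited table of gene sets raised in AA colon holds 4 sets named for TNF or NF-kB. In the authors' deposited table NEMETH_TNF_UP has a normalized enrichment score of 1.92 (false discovery rate q of 0.003) and HINATA_NFKB_UP one of 1.78 (q of 0.01). SANA_TNFA_ENDOTHELIAL_UP and SANA_TNFA_ENDOTHELIAL_DN, sets of genes raised and lowered by TNF in endothelial cells by their names, have scores of 2.12 and 2.08 in the authors' deposited table. Both directions of that pair were thus listed as raised. The table names no genes, so how far these sets share the genes above was not analysed here.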

How the data were processed

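RNA of 8 distal colon samples (100 ng labelled per array) was measured on Affymetrix MoGene arrays. Per the submitters' processing notes, the deposited log2 values came from RMA, with Affymetrix Power Tools and Partek 6.4 named. The sources used here give no build, annotation release or filter. For each gene the deposited means of the 2 batches differed by at most 0.00006, so batch means had been removed before deposit. Per the file headers, the authors' other table holds enrichment scores, p-values and q-values for each set.

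Of 23442 probe sets, 18154 had 1 gene symbol in the platform annotation and were fitted in R 4.3.3 with limma 3.58.1 (lmFit, eBayes), with batch and group as terms, 5 residual degrees of freedom and Benjamini-Hochberg adjustment over all of them. Intervals are 95% intervals of that fit. The fit was also run on simulated data with 200 changed probe sets, and the outcome is not reported here. The simulated noise was independent between arrays, without removed batch means or arrays that stand apart, so it cannot speak to those features. Shares of all genes use 1 probe set per gene, the one with the highest mean. Dim means below the median of the tested probe sets. The members and lists were chosen with earlier results of these data known. Members in a fixed panel, and beside it the 3 ligands and 5 receptors with the smallest p, are given array by array, and from each pathway list the 3 genes with the smallest p. Outside the panel 2 ligands remained. No array column was left unmapped. The number of arrays limits the precision. Alternatives were a fit without batch, a replicate block, leaving out dim probe sets, quantile and median scaling, another variance model, each array left out, each batch alone, other choices of probe set, and probe sets of several genes. Leaving out AA replicate 3 and SS replicate 1 together was added after the data were seen.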

Additional observations from a re-analysis of the deposited data

Results flagged for a closer look

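In SS colon, Tnfrsf19 in replicate 1 stood at 6.32, and the next SS array was at 6.06. The gap is 0.862 of the range of the 4 SS arrays, above Dixon's 95% critical value for 4 samples. Chance alone gives such a gap in about 1 in 20 groups, and 27 genes were looked at in each of 2 groups. SS replicate 1 is also the array with the narrowest spread over probe sets and the highest in 11 of the 16 dim members. Its part in this value was not tested.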

How the results depend on the processing

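No probe set passed an adjusted p of 0.05 in limma under any setting tried (0 in each, with 977 higher and 490 lower at an unadjusted p under 0.05 in the fit reported). The count of members called higher at an unadjusted p under 0.05 was 5, and 3 to 6 with single arrays left out, 3 without SS replicate 4; the count called lower was 0, and 0 to 1 with single arrays left out (Tnfrsf10b without SS replicate 1). In batch 1 alone 1 was called higher (Tnfsf10) and 1 lower (Tnfsf18), in batch 2 alone 4 higher and 1 lower (Tnfrsf11a). With quantile normalization 5 were called, 4 of them the same, with Tnfrsf23 in place of Tnfrsf1b. Correlations of deviations between AA and SS arrays of the same number ran from -0.441 to -0.093. In 0 of 8 arrays was the closest array of the other group that of the same number. These values cannot tell whether the numbers pair the arrays. Arrays of the same number share a batch, and the removal of batch means by itself pushes such correlations below 0. The replicate block called 6 higher, with Tnfsf10 added. The ligand median was -0.067 in batch 1 alone, 0.23 in batch 2 alone and 0.37 without dim probe sets, and the receptor median -0.059 in batch 1 alone, 0.17 in batch 2 alone and 0.17 without dim probe sets, where 11 members were left; without single arrays the medians ran from -0.0001 to 0.13 and from -0.030 to 0.10. Of 27 member differences 9 kept their sign in every setting. Those that turned were Tnf -0.067, Tnfrsf11a 0.17, Tnfrsf13b -0.047, Tnfrsf14 -0.12, Tnfrsf18 -0.012, Tnfrsf19 -0.060, Tnfrsf21 -0.017, Tnfrsf4 -0.17, Tnfrsf8 -0.14, Tnfsf11 -0.036 in batch 1 alone, Tnfrsf13c 0.22, Tnfrsf17 0.12, Tnfrsf22 0.058, Tnfrsf25 0.040, Tnfrsf26 0.24, Tnfrsf9 0.11, Tnfsf18 0.19, Tnfsf8 0.16 in batch 2 alone, Tnfrsf14 -0.0083, Tnfrsf17 0.0034, Tnfrsf21 -0.011, Tnfrsf22 0.020, Tnfsf8 0.021 with quantile normalization, and Tnfrsf13c 0.17, Tnfrsf14 -0.048, Tnfrsf17 0.061, Tnfrsf21 -0.0053, Tnfrsf22 0.076, Tnfrsf25 0.035, Tnfrsf26 0.064 without AA replicate 3 and SS replicate 1. With single arrays left out, the ranges of those that turned were Tnfrsf13c -0.14 to 0.10, Tnfrsf14 -0.069 to 0.13, Tnfrsf21 -0.061 to 0.13, Tnfrsf22 -0.054 to 0.063, Tnfrsf26 -0.15 to 0.099, Tnfsf8 -0.11 to 0.027, Tnfrsf17 -0.14 to 0.040, Tnf -0.0001 to 0.18, Tnfrsf4 -0.091 to 0.14, Tnfrsf8 -0.045 to 0.12, Tnfrsf25 -0.11 to 0.021, Tnfrsf13b -0.0095 to 0.073. The cause of these turns was not tested. All members have 1 probe set, so other choices of probe set left each difference as it was. Signal over background was not analysed here, and the 16 dim members may be close to it.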
